A study of Mus musculus with 10 samples.

Results

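The Cyp4a genes of mouse encode cytochrome P450 enzymes that add a hydroxyl group to the terminal (omega) carbon of fatty acids such as laurate and arachidonate. The 6 members described here, Cyp4a10, Cyp4a12a, Cyp4a12b, Cyp4a14, Cyp4a31 and Cyp4a32, were chosen by gene symbol from 24421 genes listed in the liver count table, and all 6 passed the filter on low counts. Liver mRNA had been sequenced from 10 male wild-type C57BL/6 mice aged 21 weeks and fed freely. Of these libraries, 5 came from mice on standard chow (Chow, n = 5), and the others from mice whose chow held TM5614, an orally active small-molecule inhibitor of plasminogen activator inhibitor-1, at 20 mg/kg per day for 10 days (TM5614, n = 5). Each library was 1 mouse, and a single compound at a single dose and time was examined. In these bulk libraries fewer cells of a type and less RNA per cell cannot be told apart.

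Omega-hydroxylation is a side route of fatty acid breakdown. The hydroxyl made by a Cyp4a enzyme is oxidised by alcohol and aldehyde dehydrogenases to a dicarboxylic acid, which is then shortened in peroxisomes. In rodent liver Cyp4a10 and Cyp4a14 are classical targets of PPAR-alpha, the nuclear receptor that senses fatty acids, and their mRNAs are used as markers of its activity. Cyp4a12a is known as a male-predominant arachidonate hydroxylase that makes 20-HETE.

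Total counts per library ran from 6398335 to 10874955. The 10 hepatocyte markers summed to between 136646 and 147542 CPM (counts per 1000000 counts of the library, after TMM scaling) in Chow and between 119750 and 137480 in TM5614. Transcripts of 12 skeletal muscle markers summed to 33774 counts in TM5614 library 2 and to 687 in TM5614 library 3. The sum was 9 to 56 counts in TM5614 libraries 1, 4 and 5 and 5 to 13 in the Chow libraries. Within its group Chow library 2 had a mean correlation of 0.927 with the others, against 0.965 to 0.970 for the other Chow libraries.

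All 6 members lie within 322.557 kb of mouse chromosome 4 (mm10, GENCODE M21 annotation), 5 on the plus strand and Cyp4a14 on the minus strand. From left to right they are Cyp4a12a at chr4:115299046-115332815, Cyp4a12b at chr4:115411624-115439034, Cyp4a14 at chr4:115486200-115496142, Cyp4a10 at chr4:115518264-115533649, Cyp4a31 at chr4:115563649-115579015 and Cyp4a32 at chr4:115600969-115621602. The annotated transcript with the longest coding sequence has 13 exons for Cyp4a10 and 12 for each other member.

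The sequences fall into 3 groups, which bear on how well reads of 75 bases can be assigned. Cyp4a10 and Cyp4a32 share 97.2% of their aligned coding bases, Cyp4a10 and Cyp4a31 share 96.6%, and Cyp4a31 and Cyp4a32 share 96.0%. Cyp4a12a and Cyp4a12b share 98.5%. Cyp4a14 stands alone, with 75.2% to 75.9% identity to the other 5. The stretch below is the 75-base coding window, within 1 exon, in which Cyp4a31 and Cyp4a32 together differ most from Cyp4a10; capitals mark bases that differ from the Cyp4a10 line. It lies at chr4:115519630-115519704 in Cyp4a10, chr4:115565010-115565084 in Cyp4a31 and chr4:115602260-115602334 in Cyp4a32, all on the plus strand. Cyp4a31 differs at 3 bases and Cyp4a32 at 11.
Cyp4a10: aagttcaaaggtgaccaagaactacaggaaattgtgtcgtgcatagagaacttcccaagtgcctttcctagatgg
Cyp4a31: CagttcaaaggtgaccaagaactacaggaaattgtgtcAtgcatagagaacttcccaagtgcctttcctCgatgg
Cyp4a32: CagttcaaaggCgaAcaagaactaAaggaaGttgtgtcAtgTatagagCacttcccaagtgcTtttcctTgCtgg

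In some other windows the same 3 genes cannot be told apart by a read of this length. The next window is identical in all 3, at chr4:115529442-115529516 in Cyp4a10, chr4:115574890-115574964 in Cyp4a31 and chr4:115614820-115614894 in Cyp4a32.
Cyp4a10, Cyp4a31 and Cyp4a32: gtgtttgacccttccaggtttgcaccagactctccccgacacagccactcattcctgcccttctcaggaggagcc

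For the Cyp4a12 pair even the most different coding window, at chr4:115326674-115326748 in Cyp4a12a and chr4:115432927-115433001 in Cyp4a12b, holds 6 differences, in capitals in the Cyp4a12b line.
Cyp4a12a: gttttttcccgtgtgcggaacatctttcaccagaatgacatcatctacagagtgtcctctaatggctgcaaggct
Cyp4a12b: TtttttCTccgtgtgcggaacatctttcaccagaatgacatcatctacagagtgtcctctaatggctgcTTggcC

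The pair Cyp4a14 and Cyp4a10, which carried most of the Cyp4a counts, is far apart in sequence. Their most different coding window (chr4:115492153-115492227 on the minus strand and chr4:115524733-115524807 on the plus strand) holds 34 differences, in capitals in the Cyp4a10 line.
Cyp4a14: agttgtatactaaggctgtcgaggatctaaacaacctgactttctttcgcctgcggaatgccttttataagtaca
Cyp4a10: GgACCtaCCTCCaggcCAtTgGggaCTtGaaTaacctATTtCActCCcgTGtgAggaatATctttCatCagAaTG

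Every one of the 2422 windows of 75 bases in the Cyp4a14 transcript was found in no other annotated gene. The share of such windows was 80.9% for Cyp4a10, 86.1% for Cyp4a31, 69.6% for Cyp4a32, 59.2% for Cyp4a12a and 58.7% for Cyp4a12b. With up to 2 mismatches allowed, the share with a match in another member was 75.1% for Cyp4a12b and 74.2% for Cyp4a12a. It was 74.0% for Cyp4a32, 63.6% for Cyp4a10 and 40.2% for Cyp4a31. The Cyp4a32 transcript used has 1530 bases, of which 1527 are coding, so its shares cover almost only coding sequence. Transcripts of the other members have 2109 to 2509 bases, so the shares are not fully comparable. How the authors counted reads that match several genes is not given in the sources used here, so counts of the near-identical members are uncertain and their sums are given too.

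**Figure D1:**
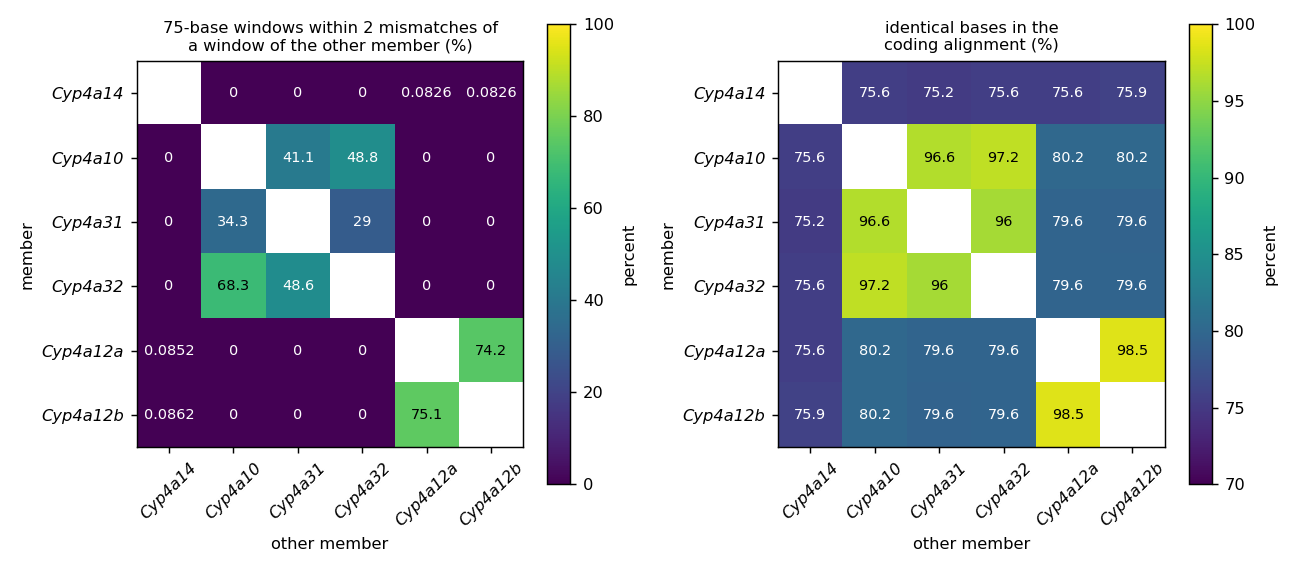
Sequence shared between the Cyp4a members. Left, percent of the 75-base windows of the member in the row that lie within 2 mismatches of a window of the member in the column; right, percent of identical bases in the pairwise coding alignment. The blocks Cyp4a10, Cyp4a31 and Cyp4a32 and Cyp4a12a and Cyp4a12b stand out, and Cyp4a14 has 0 to 0.0826% of its windows near any other member.

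TM5614 was compared with Chow to ask how treatment altered the omega-hydroxylase transcripts. Of the 6 members, 3 (Cyp4a10, Cyp4a14 and Cyp4a31) were higher in TM5614 at an adjusted p under 0.05 in the edgeR quasi-likelihood test, and none was lower. Of all 11092 genes tested, 4.50% were called in either direction, with 192 (1.73%) higher and 307 lower. The same 3 members were also those whose 5 TM5614 libraries all lay above the 5 Chow libraries, which held for 4.07% of genes tested. DESeq2 and limma-voom also called 3 members each. The estimates of all 6 members were above 0, while the median log2 fold change of all genes tested was 0.013.

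Cyp4a14, the most abundant member, had 4888, 2327, 3427, 2822 and 2946 CPM in the 5 Chow libraries. In the TM5614 libraries it had 7724, 6474, 7669, 9700 and 7399 CPM. The lowest treated library, number 2, stood above the highest Chow library, number 1. The mean rose from 3282 ± 979 CPM (SD, n = 5) to 7793 ± 1178 CPM (SD, n = 5), a change of 1.25 on the log2 scale (SE 0.19, adjusted p = 0.00302 by edgeR). Counted per length, Cyp4a14 ranked between 34 and 85 among all listed genes in Chow and between 16 and 25 in TM5614.

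Cyp4a10, a lauric acid omega-hydroxylase, had 1783, 937, 1355, 1057 and 1278 CPM in Chow and 3734, 2282, 3442, 3767 and 3731 CPM in TM5614. Treated library 2 lay well below the other treated libraries, which were close together, although it was still above every Chow library. The mean rose from 1282 ± 326 to 3391 ± 634 CPM (SD over 5 libraries), with a change of 1.40 on the log2 scale (SE 0.19, adjusted p = 0.00167 by edgeR). Without TM5614 library 2, which carried the muscle transcripts, the log2 fold change was 1.51 (adjusted p = 0.00110 by edgeR), and without library 2 of both groups it was 1.42 for Cyp4a10 and 1.20 for Cyp4a14.

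Cyp4a31 was the least abundant member. Its counts averaged 279 a library in TM5614, beside 28584 for Cyp4a10. The part of Cyp4a10 reads counted as Cyp4a31 in the values below was not tested. It had 22.9, 14.1, 17.1, 20.6 and 18.3 CPM in Chow and 27.1, 27.0, 37.4, 43.9 and 29.6 CPM in TM5614. The groups did not overlap, but the lowest 2 treated libraries stood close to the highest Chow library. The mean rose from 18.6 ± 3.37 to 33.0 ± 7.41 CPM (SD over 5 libraries), a change of 0.83 on the log2 scale (SE 0.17, adjusted p = 0.0188 by edgeR). The call was lost when single libraries were left out: the edgeR adjusted p was 0.0560 without Chow library 3, 0.0638 without TM5614 library 3 and 0.0525 without TM5614 library 4.

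Cyp4a32, the nearest in sequence to Cyp4a10, did not pass the test. Its Chow libraries had 51.1, 33.2, 33.8, 49.8 and 48.9 CPM and its TM5614 libraries had 51.3, 39.3, 57.6, 48.7 and 51.5 CPM. The groups overlapped almost entirely, with only treated library 3 above all Chow libraries by more than 1 CPM. The change was 0.20 on the log2 scale (SE 0.16, adjusted p = 0.492 by edgeR), and it was 0.11 without Chow library 2 and 0.12 without Chow library 3.

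Neither gene of the Cyp4a12 pair passed. Cyp4a12a had 91.0, 95.1, 178, 112 and 81.5 CPM in Chow and 155, 130, 126, 172 and 121 CPM in TM5614, with Chow library 3 the highest of all 10. The change was 0.34 on the log2 scale (SE 0.20, adjusted p = 0.367 by edgeR), and without Chow library 3 it was 0.57 (SE 0.15, adjusted p = 0.0692 by edgeR). Cyp4a12b had 41.7, 34.3, 49.1, 68.4 and 29.3 CPM in Chow and 58.3, 70.2, 72.7, 53.7 and 61.1 CPM in TM5614. All treated libraries lay above 4 of the Chow libraries, and Chow library 4 lay within the treated range. For Cyp4a12b the estimate was 0.51 on the log2 scale (SE 0.20, adjusted p = 0.189 by edgeR), and without Chow library 4 it was 0.71 (adjusted p = 0.0449 by edgeR).

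**Figure D2:**
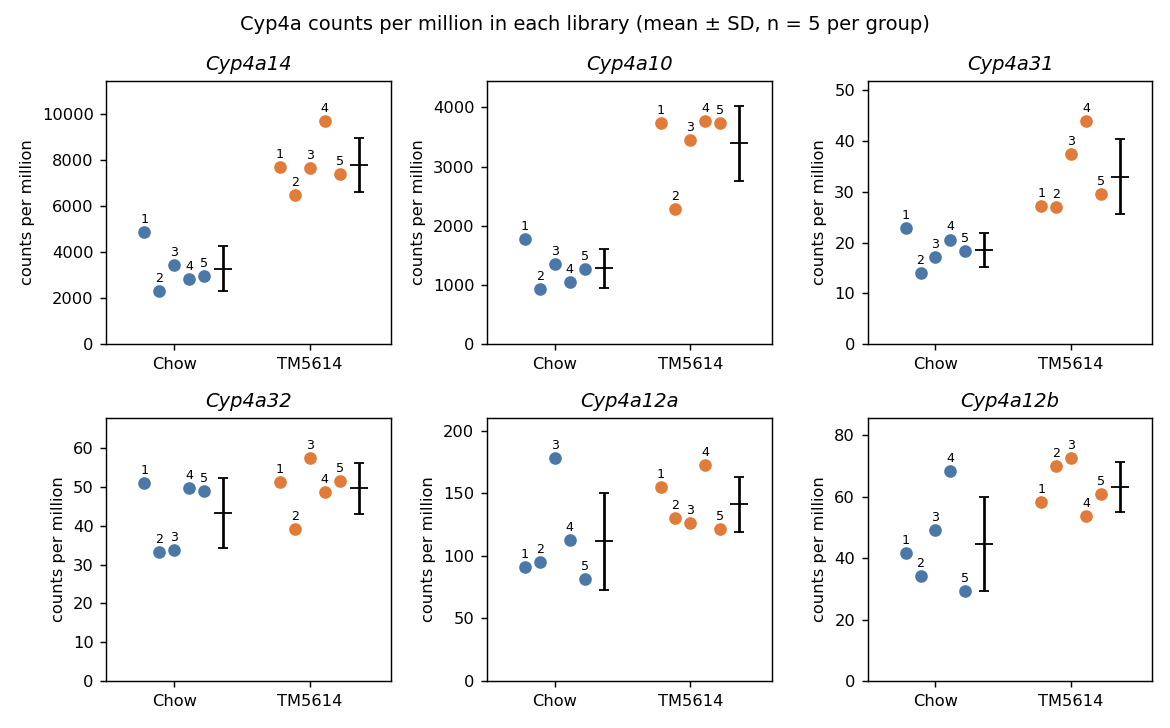
CPM (vertical axis, from 0) of each Cyp4a member in the 5 Chow and 5 TM5614 libraries; the number beside a point is the library number and black bars give the mean ± SD. The groups are separate for Cyp4a14, Cyp4a10 and Cyp4a31 and overlap for Cyp4a32, Cyp4a12a and Cyp4a12b.

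Rows that share reads were also summed. The sum of Cyp4a10, Cyp4a31 and Cyp4a32 rose from 1344 ± 333 to 3474 ± 642 CPM (SD over 5 libraries), a change of 1.37 on the log2 scale (SE 0.19). Cyp4a10 alone had 1282 CPM of this sum in Chow and 3391 CPM in TM5614, so the sum says little about Cyp4a31 or Cyp4a32. The sum of Cyp4a12a and Cyp4a12b was 156 ± 47.4 CPM in Chow and 204 ± 16.5 CPM in TM5614, with overlapping groups and a change of 0.39 on the log2 scale (SE 0.18). All 6 genes together made up 0.328% to 0.671% of the counts in Chow and 0.940% to 1.37% in TM5614.

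Levels can be compared between genes only per length, for which the deposited FPKM (reads per kilobase of transcript, scaled to the size of the library) were used. In Chow the order was Cyp4a14 (1301 ± 391 FPKM), Cyp4a10 (608 ± 156), Cyp4a12a (45.6 ± 15.9), Cyp4a32 (22.4 ± 4.63), Cyp4a12b (18.4 ± 6.27) and Cyp4a31 (7.33 ± 1.33; SD, n = 5 for each). Every neighbour in this order was separated in 5 of 5 libraries except Cyp4a32 and Cyp4a12b, where Cyp4a32 was higher in 3 of 5. In TM5614 the means were 3081 ± 485 FPKM for Cyp4a14, 1605 ± 310 for Cyp4a10 and 57.4 ± 9.11 for Cyp4a12a, followed by Cyp4a12b (26.0 ± 3.17), Cyp4a32 (25.6 ± 3.56) and Cyp4a31 (12.97 ± 2.98; SD, n = 5 for each). Cyp4a12b was above Cyp4a32 in 2 of 5 treated libraries, so this pair is not ordered in either group. Cyp4a14 held 65.0% of the summed Cyp4a FPKM in Chow and 64.1% in TM5614, and Cyp4a10 held 30.4% and 33.4%.

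Whether the counts assigned to members changed by unequal amounts was tested with the log2 ratio of 2 members within each library, over all 15 pairs. Cyp4a10, Cyp4a31 and Cyp4a32 have windows in common, as do Cyp4a12a and Cyp4a12b. Ratios that involve these members compare counts as assigned, and the part of misassigned reads in them was not tested. The ratio of Cyp4a10 to Cyp4a14 averaged -1.35 ± 0.10 in Chow and -1.21 ± 0.22 in TM5614 (SD over 5 libraries), a difference of 0.13 that did not pass (exact two-sided permutation test, adjusted p = 0.327). In all, 6 pairs passed, with the smallest p that 5 against 5 libraries allow being 0.00794. Relative to Cyp4a32, the log2 ratio was higher in TM5614 by 1.20 for Cyp4a10, by 1.07 for Cyp4a14 and by 0.60 for Cyp4a31, and relative to Cyp4a31 it was higher by 0.60 for Cyp4a10 (exact permutation test, adjusted p = 0.0298 for each). The ratios of Cyp4a10 to Cyp4a12a and of Cyp4a14 to Cyp4a31 were higher by 1.03 and 0.46 (exact permutation test, adjusted p = 0.0397 for both). Without Chow library 2, Chow library 4 or TM5614 library 4, 0 of 15 pairs passed. The differences of the 6 pairs were then 0.38 to 1.19, beside 0.46 to 1.20 with all libraries, and their adjusted p was 0.0510 to 0.0794 by the exact permutation test, which can take few values with 4 against 5 libraries. The ratio of Cyp4a12a to Cyp4a12b spread widely within Chow, from 0.71 to 1.86, and differed by -0.17 between groups (exact permutation test, adjusted p = 0.553).

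The surrounding genes were examined because the members form a cluster. Within 250 kb of the cluster 13 other annotated genes were listed in the count table and 6 passed the filter. None of the 6 was called by edgeR, DESeq2 or limma-voom, and 2 had an unadjusted edgeR p under 0.05. With 4.50% of all genes tested called by edgeR, 6 genes are too few to tell the surroundings from other genes. Cyp4b1, a P450 gene next to Cyp4a32, had a change of 0.10 on the log2 scale (SE 0.30), Efcab14 of 0.27, Atpaf1 of 0.52, Mob3c of -0.30, Mknk1 of 0.01 and Pdzk1ip1 of -1.27 (SE 0.48, adjusted p = 0.164 by edgeR). The 2 other Cyp4a genes listed did not reach the filter. Cyp4a29 had 0 counts in each library, which allows up to 3 counts, and Cyp4a30b had 1 count over the 10 libraries. A 300-base promoter (RefSeq, GRCm38.p6) was at hand for Cyp4a32 alone. On neither strand did it hold the nuclear receptor hexamer AGGTCA, which 16.2% of all 32544 promoters hold. Nor did it hold the PPAR-type direct repeat AGGTCANAGGTCA with up to 2 mismatches, which 3.87% hold. The exact repeat contains the hexamer, but a match with mismatches need not. The Cyp4a32 promoter held none of the D-box TTATGTAA (0.931% of promoters) and 1 match to TATAAA, on the opposite strand (13.6% of promoters). Promoters of the other members were not analysed here.

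**Figure D3:**
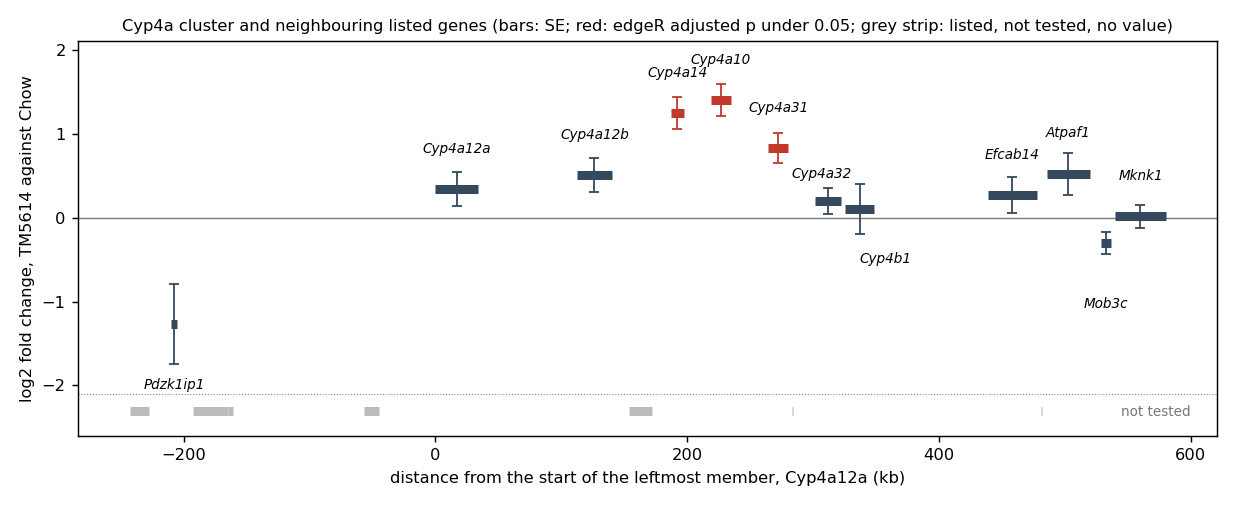
Log2 fold change (vertical axis, TM5614 against Chow, bars SE) of the Cyp4a members and of the other listed genes within 250 kb, each drawn to scale along the distance from the start of Cyp4a12a (horizontal axis, kb). Cyp4a14, Cyp4a10 and Cyp4a31, in red, passed the test, and the genes on either side of them did not; genes in the grey strip were not tested and have no value.

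The other Cyp4 genes, most of which act on eicosanoids, vitamin E or very long fatty acids, did not move as one. Of 7 tested, 1 was higher, 1 lower and the median log2 fold change was -0.01. Cyp4f14, the mouse leukotriene B4 and vitamin E omega-hydroxylase, had 156 ± 23.2 CPM in Chow and 87.7 ± 11.4 CPM in TM5614 (SD over 5 libraries), with no overlap and a change of -0.83 on the log2 scale (SE 0.13, adjusted p = 0.00347 by edgeR). Cyp4f17 rose from 4.33 ± 0.95 to 8.27 ± 1.88 CPM (log2 fold change 0.92, SE 0.20, adjusted p = 0.0243 by edgeR). The log2 fold changes of the 5 that did not pass were -0.21 for Cyp4f13, 0.15 for Cyp4v3, 0.10 for Cyp4b1, -0.09 for Cyp4f15 and -0.01 for Cyp4f16. Only 1 of the 7 was called without Chow library 1, 4 or 5 or TM5614 library 1, 3 or 4.

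Genes known, like Cyp4a10 and Cyp4a14, as PPAR-alpha targets were read as a list. Of 43 tested, Cyp4a genes left out, 14 were called higher and 1 lower by edgeR, 28 did not pass, and 37 estimates were above 0. The median log2 fold change was 0.49, beside 0.013 for all genes. The list was drawn up with results of these libraries known, so it is not independent evidence of a direction. Without either TM5614 library 3 or TM5614 library 4, 9 targets were called higher and 0 lower, and without library 2 of both groups 30 were called higher.

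Those that rose most included Pdk4, the kinase that holds back glucose oxidation, with 2.31 to 6.44 CPM in Chow and 12.6 to 144 CPM in TM5614 (log2 fold change 3.56, SE 0.69, adjusted p = 0.0122 by edgeR). Its highest value was in TM5614 library 2, the one with muscle transcripts, and the part of those transcripts in the difference was not tested. Fgf21, a fasting hormone of the liver, rose from 1.28 ± 0.49 to 10.95 ± 1.74 CPM (log2 fold change 3.04, SE 0.24, adjusted p = 1.4e-04 by edgeR). The lipid droplet genes Cidec (2.43), Plin5 (1.32) and the lipolysis inhibitor G0s2 (1.59) and the acyl-CoA thioesterases Acot1 (2.04) and Acot2 (1.30) also rose, with the log2 fold change in brackets. Acot1 and Acot2 are close paralogs, as is Acot3, so their counts may be split between them. Acot3 fell by 1.00 on the log2 scale (SE 0.24, adjusted p = 0.0349 by edgeR). This call was lost when any 1 library other than Chow library 2 or 4 was left out, with log2 fold changes of -1.08 to -0.89 and an adjusted p of 0.0515 to 0.107 by edgeR.

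**Figure D4:**
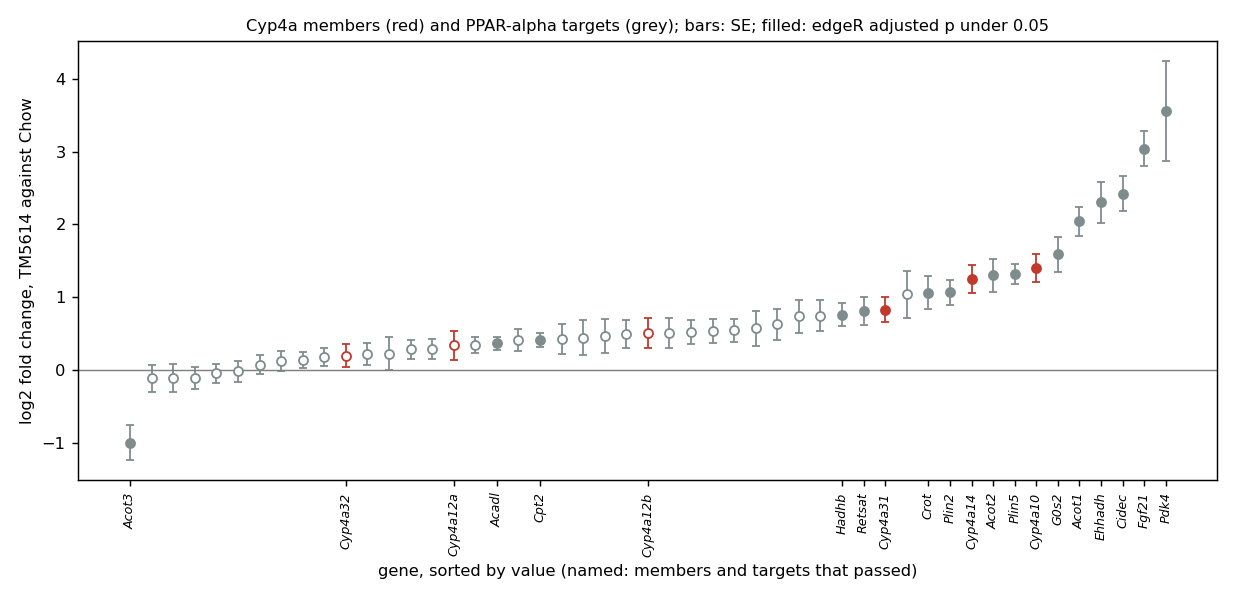
Log2 fold change (vertical axis, bars SE) of the 6 Cyp4a members, in red, among the 43 PPAR-alpha targets tested, in grey, sorted by value along the horizontal axis, with names for the members and for targets that passed. Filled points passed the test; Cyp4a10 at 1.40 and Cyp4a14 at 1.25 lie between Plin2 at 1.07 and G0s2 at 1.59.

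The receptor gene itself did not pass the test. Ppara had 470 to 655 CPM in Chow and 421 to 627 CPM in TM5614, with a change of -0.03 on the log2 scale (SE 0.14, adjusted p = 0.922 by edgeR). Of 17 genes for the receptor and its partners 0 were higher and 2 were lower by edgeR. These were Rxra, its dimer partner, with a change of -0.38 on the log2 scale (SE 0.09, adjusted p = 0.0417 by edgeR), and the coactivator Ppargc1b with -0.83 (SE 0.21, adjusted p = 0.0417 by edgeR). Both calls were lost without Chow library 1 or 4 or TM5614 library 1, 2, 3 or 4, and 1 call was made without Chow library 3 or 5 or TM5614 library 5.

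Genes for the steps around omega-hydroxylation were read by role. Of 7 genes listed for the supply of electrons to P450 enzymes, not all of them direct donors, 3 were lower and 0 higher. Among all 11092 genes tested 307 were lower and 192 higher. Por, the P450 reductase, had 654 to 846 CPM in Chow and 377 to 633 CPM in TM5614, a fall without overlap (log2 fold change -0.54, SE 0.14, adjusted p = 0.0431 by edgeR). The cytochrome b5 reductase Cyb5r3 and the mitochondrial cytochrome Cyb5b fell as well, with log2 fold changes of -1.02 (adjusted p = 0.00776 by edgeR) and -0.56 (adjusted p = 0.0295 by edgeR). In this list 1 gene was called without Chow library 1, 3 or 5 or TM5614 library 2, 3 or 4.

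Among 9 alcohol and aldehyde dehydrogenases, which oxidise the omega-hydroxyl group and then the aldehyde, 3 were lower and 1 was higher. All of these were alcohol dehydrogenases, and no aldehyde dehydrogenase passed. The log2 fold changes of the latter were -0.41 for Aldh1a1, -0.38 for Aldh2, -0.34 for Aldh1a7, 0.13 for Aldh9a1 and 0.57 for Aldh3a2. Adh1 had 1688 to 2697 CPM in Chow and 961 to 1284 CPM in TM5614 (log2 fold change -0.85, SE 0.14, adjusted p = 0.00490 by edgeR). Adh4 (log2 fold change -0.74) and Adh5 (-0.36) were also lower, and Adh7, at 1.66 to 2.79 CPM in Chow and 3.43 to 5.46 CPM in TM5614, was higher (0.91). Leaving out any library but Chow library 1 or 2 gave 2 calls in this list.

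Of 15 genes for peroxisomal oxidation of dicarboxylic acids 2 were higher and 0 lower by edgeR, with a median log2 fold change of 0.45. Ehhadh, the bifunctional enzyme of this pathway, had 441, 131, 327, 286 and 278 CPM in Chow and 1213, 1128, 1369, 2095 and 1431 CPM in TM5614. Each treated library exceeded every Chow library by far, and the difference was 2.31 on the log2 scale (SE 0.28, adjusted p = 8.9e-04 by edgeR). Crot, which makes carnitine esters of the shortened acids for export, rose from 739 ± 243 to 1542 ± 242 CPM (log2 fold change 1.06, SE 0.23, adjusted p = 0.0209 by edgeR). The 13 others did not pass. In all, 5 genes were called without Chow library 2, and 1 was called without Chow library 4, TM5614 library 3 or TM5614 library 4.

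Because Cyp4a12a is male-predominant, sex-biased liver genes were read beside it. Of 12 male-predominant genes tested edgeR called 0, with 5 at an unadjusted p under 0.05, DESeq2 called 1 and limma-voom called 2; the median log2 fold change was 0.01. Without Chow library 2 or 4 edgeR called 1. Of 9 female-predominant genes 3 were lower, Cyp2a4 (log2 fold change -2.22), Cux2 (-1.82) and Acot3, and 0 were higher, and 5 were called without Chow library 2.

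Circadian regulators, which include Dbp and Tef, activators that bind D-box elements, differed between the groups as well. Of 18 tested 2 were higher and 7 lower. The clock activator Arntl rose from 1.68 ± 1.39 to 11.3 ± 4.73 CPM (log2 fold change 2.76, SE 0.48, adjusted p = 0.00659 by edgeR) and Clock from 41.4 ± 9.90 to 81.7 ± 12.5 CPM (log2 fold change 0.98). The log2 fold changes were -2.27 for Per3, -2.08 for Ciart and -1.99 for Dbp. In all, 14 were called without Chow library 2. The hour of tissue collection is not given in the sources used here, and its part in the Cyp4a differences was not tested.

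Markers of other liver cell types were read in the same fit. Of 33 markers of cells other than hepatocytes that passed the filter edgeR and DESeq2 called 0, and 3 had an unadjusted edgeR p under 0.05. The call by limma-voom was 1, the stellate cell gene Dcn, as higher. These 33 held 0 of 12 skeletal muscle markers, 1 of 5 adipocyte markers and 4 of 7 cholangiocyte markers. With no filter on low counts edgeR called 1 skeletal muscle marker as higher. Of the 10 hepatocyte markers edgeR called 0, with 2 at an unadjusted p under 0.05, and DESeq2 and limma-voom each called 1 as lower, as did edgeR without Chow library 2. The 9 stellate cell markers all had estimates above 0, with a median log2 fold change of 0.22 and sums of 170 to 298 CPM in Chow and 274 to 574 CPM in TM5614. The highest sum was in TM5614 library 2, where Des, which muscle also expresses, had 258 CPM against 1.47 to 7.57 CPM in the other 9 libraries. Without that library the treated sums ran from 274 to 359 CPM, and 6 of the 9 estimates were above 0. The 11 Kupffer cell markers all had estimates below 0, with a median of -0.40 and sums of 84.7 to 271 CPM in Chow and 85.2 to 181 CPM in TM5614. Their part in the Cyp4a differences was not tested.

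Each member was finally set beside all other genes tested by the mean absolute difference of log2 CPM, centred on the mean of the 10 libraries, as a description. The group difference stays in this measure, so it partly restates the log2 fold changes, such as 1.40 for Cyp4a10 and 0.20 for Cyp4a32. Nearest to Cyp4a10 were Elovl5, a fatty acid elongase (0.14), Cyp4a14 (0.14), Enc1 (0.17) and Nedd4l (0.22). Nearest to Cyp4a14 were Rab30, Cyp4a10, Elovl5 and the monocarboxylate transporter Slc16a1, at 0.14 to 0.16. Nearest to Cyp4a31 were Wrnip1, Nlrp12, Shtn1 and Ppp2r1b, at 0.12 to 0.15, while Cyp4a10 and Cyp4a14 shared their pattern with each other far more closely than with Cyp4a32, which stood at place 2226 of 11091 from Cyp4a10. Cyp4a12a and Cyp4a12b, the most alike in sequence, differed by 0.34, which put Cyp4a12b at place 3200 from Cyp4a12a. Of the members Cyp4a12b was nevertheless the nearest to Cyp4a12a, with 0.35 to 0.56 for the others. From Cyp4a12b, Cyp4a32 (0.31) and Cyp4a31 (0.32) were nearer. Places are not comparable between members: about 0.30 was place 39 for Cyp4a31 from Cyp4a10 and place 1096 for Cyp4a32 from Cyp4a31. The genes nearest to Cyp4a12a were Taf1c, Vsig10l, Sall2 and 1110002L01Rik, those nearest to Cyp4a12b were Catsper2, Ddx17, Pigl and Cdh1, and those nearest to Cyp4a32 were 0610030E20Rik, Gtf3c1, Timm23 and Tbccd1.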

How the data were processed

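The authors aligned reads to mm10 with STAR and deposited raw gene counts and FPKM; the study's methods place STAR and DESeq2 within Illumina's RNA Express application, and the submitters' processing notes also name HOMER. Which of these made the counts, the annotation and the versions are not given in the sources used here. The deposited rlog values and the authors' own fold changes and p-values were not used.

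Counts were tested with edgeR 4.0.16 (R 4.3.3; filterByExpr, TMM factors, quasi-likelihood F test, Benjamini-Hochberg over 11092 genes, threshold 0.05). CPM use TMM library sizes. Ratios were formed with 0.5 added to each count. Alternatives used DESeq2 1.42.0, limma-voom 3.58.1, other factors and filters, a replicate block and leaving out libraries. On simulated counts DESeq2 made a larger share of false calls than its threshold, so its higher count of calls is read with that in mind; the bound set for this test was narrowed to edgeR after DESeq2 had missed it. Sequences came from GENCODE M21 transcripts. Identity of coding bases stands in for a planned protein identity.

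Members, gene lists and the rule for named genes (members, listed genes past the threshold, up to 8 a list by size, Ppara, other Cyp4 genes, genes within 250 kb and the 4 most alike) were chosen with earlier results of these data known. Dcn, Des and the aldehyde dehydrogenases were named after their values were seen. Some listed genes enter the counts and are not reported here by name. The sum over all 6 members was added after seeing the data. By label each library is a separate mouse. Counting intervals and floors cover counting error only.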

Additional observations from a re-analysis of the deposited data

Results flagged for a closer look

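Of 48 groups of 5 values 3 had 1 library far from the others, where chance gives about 1 in 20; sums and ratios reuse the counts of single genes, so these are not independent. All 3 were in the second TM5614 library. Cyp4a10 had 2282 CPM there, against 3442 to 3767 CPM in the other treated libraries. The sum of Cyp4a10, Cyp4a31 and Cyp4a32 had 2348 CPM there, against 3537 to 3860 CPM. The log2 ratio of Cyp4a12b to Cyp4a32 was 0.84 there, against 0.14 to 0.34. That library also held 33774 counts of skeletal muscle markers, and the part of this in the 3 values was not tested.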

How the results depend on the processing

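Cyp4a10 and Cyp4a14 passed the threshold under all 22 alternatives run, with log2 fold changes of 1.30 to 1.55 and 1.14 to 1.43. Cyp4a31 passed under 18, Cyp4a12b under 1, and Cyp4a12a and Cyp4a32 under 0. No result reversed. Leaving out 1 library at a time gave 2 to 4 members called, and summed log2 fold changes of 1.28 to 1.51 (Cyp4a10, Cyp4a31 and Cyp4a32), 0.29 to 0.56 (Cyp4a12a and Cyp4a12b) and 1.17 to 1.42 (all 6).

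The number of genes changed, 499, was 908 with DESeq2, 1386 with limma-voom, 184 at an adjusted p of 0.01 and 1230 without the second library of both groups. It ran from 235 (without the third TM5614 library) to 1031 (without the second Chow library), with 293 without the third Chow, 331 without the first TM5614 and 259 without the fourth TM5614 library; the causes were not tested. Pairs of members with a changed ratio, 6, ran from 0 to 8 with 1 library left out. In TM5614, 4 of 5 neighbours kept the order per length with counts per kilobase of the longest transcript, and 4 to 5 with 1 library left out.

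Calls per list also moved. At an adjusted p of 0.01 there were 8 for PPAR-alpha targets (of 15), 1 for other Cyp4 genes (of 2), 1 for dehydrogenases (of 4), 1 for peroxisomal oxidation (of 2), 1 for electron supply (of 3), 0 for the receptor and its partners (of 2) and 1 for female-predominant genes (of 3). With limma-voom there were 27 PPAR-alpha targets, 9 peroxisomal, 2 male-predominant and 14 clock genes; with DESeq2 4 peroxisomal and 1 male-predominant. Without the second library of both groups there were 31, 9, 3 male-predominant, 5 female-predominant and 14 clock genes. With no filter there were 2 dehydrogenases and 0 receptor partners; library totals alone and the GC and length correction left 1 receptor partner each, and the latter, which covers 96.7% of genes, called 1 male-predominant gene. With 1 library left out the calls were 9 to 22 for PPAR-alpha targets, 1 to 2 for other Cyp4 genes, 2 to 4 for dehydrogenases, 1 to 5 for peroxisomal oxidation, 1 to 3 for electron supply, 0 to 2 for receptor partners, 0 to 1 for male-predominant, 2 to 5 for female-predominant and 7 to 14 for clock genes.

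Same-numbered libraries had correlated deviations of 0.03 to 0.32, not above 0.1 in every pair, so the numbers were not taken to pair the samples. With the replicate block 555 genes and 3 members were called, along with 5 peroxisomal genes and 1 male-predominant gene, and the summed log2 fold change of all 6 members was 1.29. Acot3 no longer passed with the block (adjusted p = 0.0543 by edgeR). The lowest counts among the members were those of Cyp4a31, 130 to 384 a library.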
